A study of Mus musculus with 6 samples.

Results

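The genes described here are 10 inhibitors and output genes of the Ras-ERK pathway: Spry1, Spry2, Spry4, Spred1, Spred2, Dusp4, Dusp6, Etv4, Etv5 and Rasa1. They were taken for their place in the pathway, with earlier results of these data known. Every probe set annotated with 1 of these symbols alone was taken, which gave 30 of the 45037 probe sets and 10 of the 18193 genes on the array. The values come from 6 cultures of MC3T3 osteoblasts, 3 pRb-deficient and 3 pRb-expressing, each hybridized to 1 Affymetrix Mouse Genome array. MC3T3 osteoblasts are bone-forming cells from the skull cap of mouse embryos at day 18.5 immortalized by serial 3T3 passage. In the animals that gave the pRb-deficient cells, flox19-RB1 was excised by Cre recombinase under the Col1a1 promoter, which is active in osteoblasts. The pRb-expressing cells came from control littermates. The pRb-deficient arrays are labelled MC3T3 Rb Knockout and the pRb-expressing arrays MC3T3 Wild type. The methods of the study give the cells as Rb−/− and Rb+/+. The flox19-RB1 mice were kept on a C57BL/6 background, and the parents of the animals used were RBf19/WT;Col1a1-Cre. The methods of the study name 2 Cre transgenes, with the 2.3- and 3.6-kb Col1a1 promoter. The methods and the labels do not say which one the cultured cells carried, nor whether the control cells carried Cre. They also do not say whether the 3 replicates of a group were separate lines or cultures of 1 line, and the p-values therefore cover the spread among these cultures alone.

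Growth factor receptors load the GTPase Ras with GTP, and Ras then starts the RAF, MEK and ERK kinase cascade. ERK in turn raises the transcription of several of its own inhibitors. Sprouty and Spred proteins act at the level of Ras and RAF, and dual-specificity phosphatases such as Dusp6 remove the activating phosphates from ERK. Rasa1 is not counted here as a gene that ERK raises. Its product, p120 RasGAP, returns Ras to its GDP-bound state. Etv4 and Etv5 encode PEA3-family ETS transcription factors whose transcripts are widely used, with those of Spry and Dusp6, as a readout of pathway output. In the skeleton the pathway carries signals from fibroblast growth factor receptors, which guide the growth of the skull bones. Transcript levels are not a measure of ERK phosphorylation, which was not analysed here.

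Of the 10 genes, 9 were higher in pRb-deficient cultures at an adjusted p under 0.05 from limma, none was lower, and Spred2 did not pass the test. Among all 16308 genes tested, each by its brightest probe set, 18.5% were called higher and 23.4% were called lower. The median log2 fold change, given throughout as pRb-deficient minus pRb-expressing, was 1.46 over the 10 genes and −0.09 over all genes tested. By probe set, 21 of the 28 tested were higher and none was lower, against 16.2% of all probe sets tested that were called higher. In 23 of the 30 probe sets the 3 pRb-deficient signals all lay above the 3 pRb-expressing signals, an arrangement found in 19.1% of all probe sets.

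Signals are MAS5 intensities on a linear scale, each array scaled to a trimmed mean of 500, and they compare 1 probe set between arrays but not different probe sets. Signals at or below 32 were set to 32 before the log2 transform. A fold against a group with an array at or below that floor is a lower bound and is given as "at least". On each array 24.4% to 26.6% of probe sets lay at or below 32.

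Correlations between arrays were 0.974 to 0.984 within a group and 0.912 to 0.917 across groups. Rb1, which encodes pRb, had signals of 143, 127 and 124 in pRb-deficient cultures and 1124, 1119 and 1106 in pRb-expressing cultures (log2 fold change −3.09, standard error 0.10, limma adjusted p = 4.94e-06), although it was not examined whether its probes lie in the deleted exon. The cultures also differed in sex-linked transcripts: Xist lay at 9658 to 12296 in pRb-deficient and 160 to 176 in pRb-expressing cultures, and the Y-linked gene Eif2s3y at 1.1 to 14.6 in pRb-deficient and 860 to 925 in pRb-expressing cultures. Line of origin, sex chromosomes and pRb status therefore cannot be told apart. All 7 osteoblast markers measured, of 10 listed, were lower in pRb-deficient cultures, where their summed signal was 36064 to 48582, against 64345 to 74696 in pRb-expressing cultures. Of these, Ibsp, a matrix gene of mature osteoblasts, averaged 3.5 in pRb-deficient and 2311 in pRb-expressing cultures. Smooth muscle and pericyte markers summed to 26823 to 31967 in pRb-deficient and 23206 to 25726 in pRb-expressing cultures, with 2 of 5 tested being higher, and epithelial and mesothelial markers to 2012 to 2577 in pRb-deficient and 1080 to 1116 in pRb-expressing cultures, with 1 higher and 1 lower of 6. Most of the epithelial and mesothelial sum in pRb-deficient cultures was Msln, which averaged 1551 in pRb-deficient and 19.5 in pRb-expressing cultures, whereas Krt8 was lower (117 in pRb-deficient and 234 in pRb-expressing cultures). A sum is weighted by its brightest probe sets. Chondrocyte markers summed to 1760 to 2703 in pRb-deficient and 2649 to 3488 in pRb-expressing cultures, with Acan higher and Sox9 and Col2a1 lower of 6, and neural markers to 437 to 528 in pRb-deficient and 763 to 966 in pRb-expressing cultures, with 2 of 4 lower. No endothelial or adipocyte marker passed the test, 1 of 4 hematopoietic markers was higher, and Myh11, Tie1 and Cd3e were at or below 32 on all 6 arrays. In such bulk RNA a change in the share of cells of a type and a change in RNA per cell cannot be told apart, and the part of these markers in the results on the Ras-ERK genes was not tested.

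Of the 10 genes, Dusp4, Etv4 and Spry4 were not part of the promoter search, and nothing is said on their promoters. Windows of the other 7 genes were taken from RefSeq annotation of GRCm38.p6, 250 bases before and 50 bases from each annotated start. They were searched on both strands for an ETS word (CCGGAAG), an AP-1 word (TGAGTCA), a CRE word (TGACGTCA) and 4 E2F words (TTTCCCGC, TTTCGCGC, TTTGCCGC and TTTGGCGC), none of which overlaps another in these windows. The 100 bases before the start are shown for 3 higher genes that were bright in pRb-deficient cultures, for Rasa1, which held the single match, and for Spred2, which did not pass the test, with the ETS word in capitals. For Etv5 the first of its 2 annotated starts was used.
Spry1, chr3:37639847-37639946, plus strand: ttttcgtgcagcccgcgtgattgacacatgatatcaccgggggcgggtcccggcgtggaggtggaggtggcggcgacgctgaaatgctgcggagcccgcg
Dusp6, chr10:99263131-99263230, plus strand: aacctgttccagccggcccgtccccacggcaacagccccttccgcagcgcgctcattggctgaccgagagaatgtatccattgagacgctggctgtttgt
Etv5, chr16:22439571-22439670, minus strand: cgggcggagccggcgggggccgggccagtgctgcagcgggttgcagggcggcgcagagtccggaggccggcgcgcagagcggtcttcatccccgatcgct
Rasa1, chr13:85289487-85289586, minus strand: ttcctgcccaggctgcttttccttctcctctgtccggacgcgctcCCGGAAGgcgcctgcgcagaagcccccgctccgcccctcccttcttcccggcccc
Spred2, chr11:19924342-19924441, plus strand: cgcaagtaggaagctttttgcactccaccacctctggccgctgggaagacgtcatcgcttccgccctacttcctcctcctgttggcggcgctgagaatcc
Rasa1 alone of the 7 genes held a match, the ETS word at −55 to −49 from the start, a word that occurs in 8.86% of all 32851 windows. The AP-1 word occurs in 5.20%, the E2F words in 2.26% and the CRE word in 1.79% of all windows, and none of them was found in the 8 windows of these genes. The absence of these letters says nothing on the binding of a factor.

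The Sprouty genes encode membrane-associated inhibitors of receptor tyrosine kinase signaling, and all 3 were higher in pRb-deficient cultures. Spry1 had signals of 2574, 2470 and 1440 in pRb-deficient cultures, against 212, 233 and 239 in pRb-expressing cultures. The groups were far apart, and the third pRb-deficient culture was the lowest of its group. The log2 fold change was 3.20 (standard error 0.22, 9.19-fold, limma adjusted p = 7.38e-05), and 1.0% of all genes tested had a value as high or higher. Spry2 had signals of 517, 583 and 655 in pRb-deficient cultures, against 339, 376 and 327 in pRb-expressing cultures. The groups did not overlap, but the gap between them was small, and the log2 fold change was 0.75 (standard error 0.12, 1.68-fold, limma adjusted p = 0.003). A dimmer Spry2 probe set gave 57.1, 93.3 and 30.4 in pRb-deficient cultures and 32.3, 62.9 and 39.1 in pRb-expressing cultures, which overlapped (0.37, limma adjusted p = 0.557), and with the mean of both probe sets Spry2 no longer passed the test (0.56, limma adjusted p = 0.101).

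Spry4 was represented by 4 probe sets, none of them bright. The brightest read 189, 191 and 332 in pRb-deficient cultures and 73.8, 109 and 70.8 in pRb-expressing cultures. The third pRb-deficient culture stood above the other two, and the groups did not overlap (log2 fold change 1.46, standard error 0.30, limma adjusted p = 0.0082). A second probe set read 199, 295 and 331 in pRb-deficient cultures, against 21.3, 26.7 and 19.1 in pRb-expressing cultures. All 3 pRb-expressing values lay below the floor of 32, so the difference was at least 8.41-fold (limma adjusted p = 0.000111). Of the 2 dimmest probe sets, 1 passed the test (at least 1.70-fold, limma adjusted p = 0.0461) and the other did not (log2 fold change 0.37, limma adjusted p = 0.326).

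The 2 Spred genes, which encode relatives of the Sprouty proteins that bring the RasGAP neurofibromin to the membrane, differed in their readings. Spred1 was higher by a small amount in many probe sets. Its brightest probe set, whose "_s_at" suffix marks probes shared by several transcripts, read 1824, 2218 and 2019 in pRb-deficient cultures, against 1637, 1502 and 1623 in pRb-expressing cultures. The groups did not overlap, although the lowest pRb-deficient value was close to the highest pRb-expressing one, and the log2 fold change was 0.34 (standard error 0.09, 1.27-fold, limma adjusted p = 0.0216). This call was lost in 7 of 19 other settings, among them the omission of any 1 of the pRb-expressing cultures (limma adjusted p = 0.054, 0.0778 and 0.0551 without replicate 1, 2 and 3) or of pRb-deficient replicate 2 (limma adjusted p = 0.0739). All 7 Spred1 probe sets tested were nevertheless higher, 5 of the other 6 with log2 fold changes of 0.52 to 0.66, and at least 4 of the 7 passed in each fit with 1 culture left out. The remaining probe set, whose "_x_at" suffix marks probes that may also bind other transcripts, gave the largest value, at least 3.57-fold on geometric means (standard error 0.55 on the log2 scale) with a ratio of mean signals of 2.87, and had a wide spread in pRb-expressing cultures (212, 235 and 262 in pRb-deficient, against 29.5, 55.8 and 162 in pRb-expressing cultures).

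Spred2 read 1563, 1591 and 1556 in pRb-deficient cultures, against 1544, 1505 and 1595 in pRb-expressing cultures. The ranges overlapped, and the log2 fold change was 0.02, with a 95% interval of −0.12 to 0.16 (limma adjusted p = 0.824), an interval that lies below the fitted value of every other gene of the group. None of the 4 Spred2 probe sets tested passed, with log2 fold changes of −0.23 to 0.35. Spred2 lies on chromosome 11, whose genes had a median log2 fold change of −0.52. With the median of each chromosome removed before the fit, Spred2 was higher by 0.54 (limma adjusted p = 0.000644) and all 10 genes were called higher by their brightest probe set. In that fit 1 of the 4 Spred2 probe sets tested passed. By probe set, 21 of the 28 of these genes were higher, against 6509 higher and 6013 lower of all 38427 tested.

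**Figure D1:**
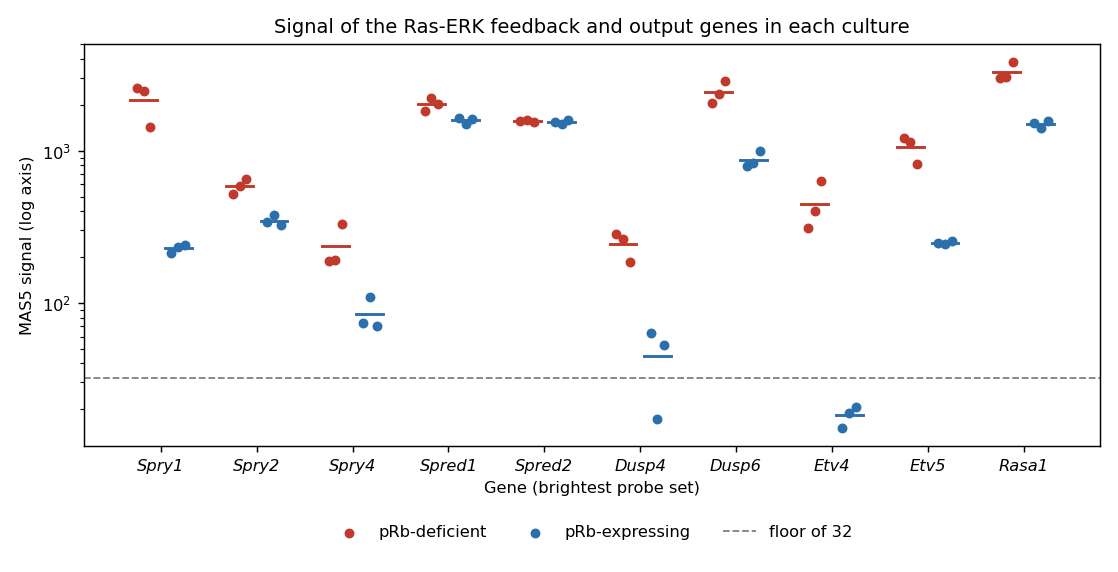
Signal of the brightest probe set of each of the 10 genes in every culture (log axis), with pRb-deficient cultures left of pRb-expressing cultures a bar at the group mean and a dashed line at the floor of 32. In 9 genes all 3 pRb-deficient points lie above the pRb-expressing points, whereas the Spred2 points overlap.

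Dusp6 encodes the cytoplasmic phosphatase that is specific for ERK, and Dusp4 an inducible nuclear phosphatase that acts on ERK and related kinases. Dusp6 had signals of 2046, 2362 and 2861 in pRb-deficient cultures, against 788, 835 and 1002 in pRb-expressing cultures. Each pRb-deficient culture was above all pRb-expressing cultures, and the log2 fold change was 1.46 (standard error 0.15, 2.76-fold, limma adjusted p = 0.00034). Dusp4 had signals of 284, 262 and 187 in pRb-deficient cultures, against 63.7, 17.3 and 52.8 in pRb-expressing cultures. The pRb-expressing signals were close to the floor and 1 of them was below it, so the difference was at least 5.05-fold (log2 fold change 2.34, standard error 0.31, limma adjusted p = 0.00125). Each of these genes had 1 probe set. Dusp4 and Dusp6 stood at 2.0% and 4.4% from the top of all genes tested by log2 fold change.

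Of the 10 genes, the transcription factor gene Etv4 had the largest log2 fold change by its brightest probe set at a floor of 32. With the mean of its probe sets it was 2.19, and with a floor of 100 it was 2.10, both below the 3.20 of Spry1. The brightest Etv4 probe set had signals of 313, 399 and 631 in pRb-deficient cultures, against 15.1, 19 and 20.8 in pRb-expressing cultures. All 3 pRb-expressing values were below the floor, so the difference was at least 13.4-fold (log2 fold change 3.74, standard error 0.28, limma adjusted p = 9.72e-05), a value reached by 0.7% of all genes tested. A second, dim Etv4 probe set read 45.2, 67.0 and 104 in pRb-deficient cultures and 7.5, 32.3 and 79.5 in pRb-expressing cultures. These ranges overlapped and the probe set did not pass the test (0.65, limma adjusted p = 0.325). Etv5 had signals of 1204, 1144 and 823 in pRb-deficient cultures, against 247, 243 and 254 in pRb-expressing cultures. The pRb-expressing cultures were nearly equal, and all pRb-deficient cultures were well above them (log2 fold change 2.07, standard error 0.15, 4.21-fold, limma adjusted p = 9.72e-05). The 2 other Etv5 probe sets were also higher, by 1.40 (limma adjusted p = 0.000671) and 0.99 (limma adjusted p = 0.00217), so the size of the difference depended on the probe set.

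Rasa1, the gene of p120 RasGAP, was bright in all cultures. Its brightest probe set read 3009, 3053 and 3817 in pRb-deficient cultures, against 1520, 1401 and 1569 in pRb-expressing cultures. There was no overlap, and the log2 fold change was 1.13 (standard error 0.11, 2.19-fold, limma adjusted p = 0.000277). A second probe set gave 2301, 2304 and 2294 in pRb-deficient cultures and 1052, 965 and 949 in pRb-expressing cultures (1.22, standard error 0.07, limma adjusted p = 2.97e-05), and the third gave 0.99 (limma adjusted p = 0.000613). The 3 probe sets thus lay between 1.98-fold and 2.33-fold. The study picked Rasa1 from these arrays for a check by qRT-PCR on the same RNA. It reports that all the genes it chose as repressed by pRb, of which its primers make Rasa1 1, passed that check. The gene was picked on these samples and the RNA was shared, so its direction is not independent evidence.

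**Figure D2:**
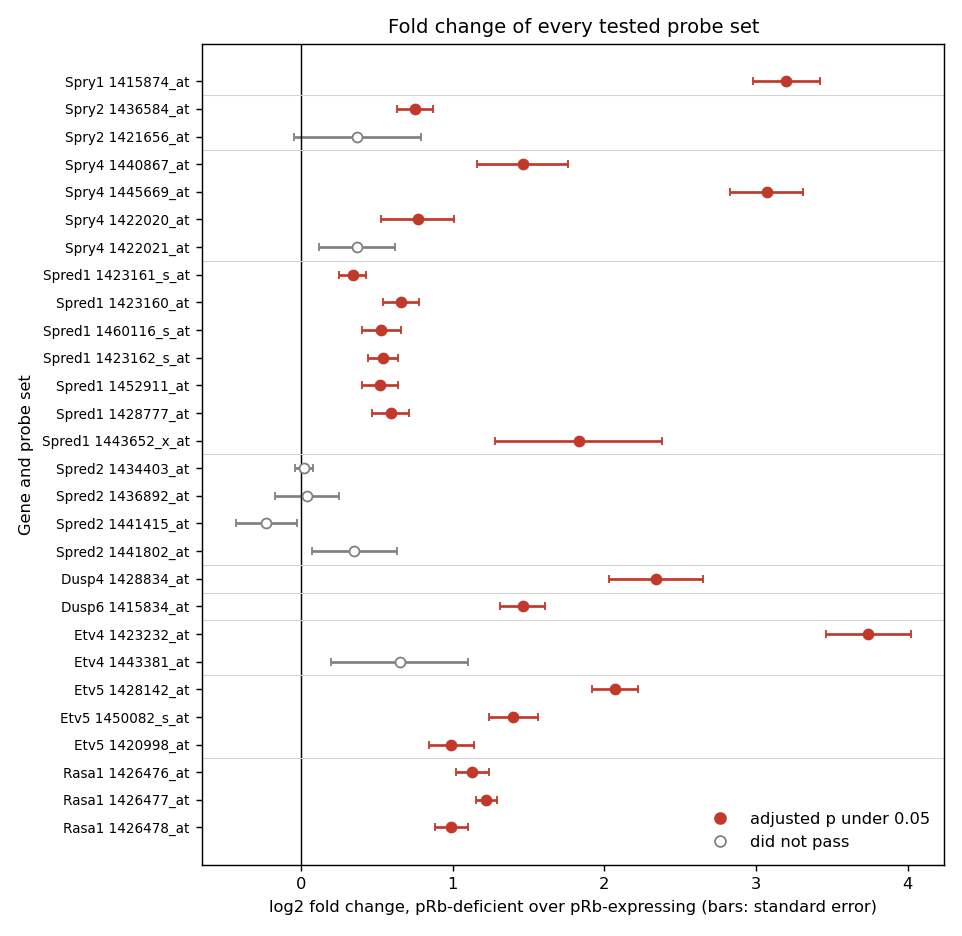
Log2 fold change (pRb-deficient minus pRb-expressing) of each of the 28 probe sets tested, grouped by gene, with bars of 1 standard error and filled points for those that passed the test. Probe sets of Rasa1 lie close together, whereas those of Spry4 and Etv4 are spread.

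The pRb-deficient cultures did not keep 1 order across the genes. Among the 9 higher genes, pRb-deficient replicate 3 was the highest of its group in 5 (Spry2, Spry4, Dusp6, Etv4 and Rasa1) and the lowest in 3 (Spry1, Dusp4 and Etv5). Replicate 1 had the opposite places, the highest in Spry1, Dusp4 and Etv5 and the lowest in the other 6. Replicate 2 was the highest only in Spred1. The fitted values of Spry1, Dusp4, Etv4 and Etv5 passed the test in all 19 other settings apart from the rank test, including the omission of each culture and a minimum change of 2-fold.

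The other genes of the pathway were described by 7 lists, also chosen with earlier results of these data known, holding 76 genes, of which 63 were tested. Among them 30 were higher (47.6%) and 9 lower (14.3%), while the other 24 did not pass, with a median log2 fold change of 0.40, against 18.5% higher and 23.4% lower over all genes. All 4 Ras proteins tested were higher, with a median of 0.90: Nras by 1.05 (adjusted p = 0.000208), Mras by 0.93 (adjusted p = 0.0038) and Rras2 by 0.88 (adjusted p = 0.00345), all from limma. Mras passed in 1 of its 2 probe sets and Nras in 2 of 3. Nras, 1 of the classical Ras genes, read 2117, 2394 and 2558 in pRb-deficient cultures and 1223, 1115 and 1076 in pRb-expressing cultures, with no overlap.

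Upstream adaptors and activators went both ways, with 5 of 13 higher, 2 lower and a median of −0.04. The exchange factor Sos2 was higher by 1.08 (limma adjusted p = 0.000119), as were the phosphatase gene Ptpn11 (0.82, in 1 of its 3 probe sets) and the adaptor Shc1 (0.55). The adaptor Grb2 was lower (−0.64, limma adjusted p = 0.00175), and so was Rasgrp3 (−1.02, limma adjusted p = 0.0326), each in 1 of its 2 probe sets. Of the RasGAPs other than Rasa1, 4 of 7 were higher, among them Rasa2 (0.88), Dab2ip (0.48) and Rasal2 (0.40), and Rasa4 was lower (−0.55). Dab2ip and Rasa4 each passed in 1 of 2 probe sets, and Rasal2 in 2 of 3. Among 10 kinases and scaffolds, Map2k1, which encodes MEK1, was higher by 0.92 (limma adjusted p = 0.000135), as were the scaffold Lamtor3 (0.73) and the RAF inhibitor Pebp1 (0.27), and Braf was lower in 1 of its 9 probe sets (−0.63, limma adjusted p = 0.00321). Of 7 kinases and factors that ERK acts on, Elk3 (1.15), Mknk2 (0.94) and Rps6ka3 (0.74) were higher and Elk4 was lower (−0.65). Elk4 passed in 2 of its 4 probe sets, Rps6ka3 in 2 of 3 and Elk3 in 3 of 4.

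Other feedback inhibitors were higher in 5 of 11 and lower in none, with a median of 0.46. The largest values belonged to further phosphatase genes. Dusp14 read 3324, 2881 and 2396 in pRb-deficient cultures and 308, 284 and 290 in pRb-expressing cultures (9.67-fold, limma adjusted p = 8.03e-06). Dusp1, which acts on several MAP kinases, read 4706, 5200 and 3773 in pRb-deficient cultures and 628, 791 and 582 in pRb-expressing cultures (6.83-fold, limma adjusted p = 3.24e-05). Dusp5, a nuclear ERK phosphatase, read 488, 1105 and 1407 in pRb-deficient cultures and 90.5, 81.7 and 58.6 in pRb-expressing cultures (12.1-fold, limma adjusted p = 0.000545). In all 3 genes the groups were far apart, and Dusp5 varied most among pRb-deficient cultures relative to its mean.

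The other output genes were split, with 6 of 11 higher, 4 lower and a median of 0.60. Fosl1, which encodes the AP-1 factor Fra-1, read 1588, 2428 and 3468 in pRb-deficient cultures and 262, 274 and 199 in pRb-expressing cultures (9.79-fold, limma adjusted p = 0.000172). Phlda1 (2.18, limma adjusted p = 0.000344) and Ier3 (1.63, limma adjusted p = 0.000195) were also higher. In the other direction, the ephrin receptor gene Epha4 read 109, 89.1 and 114 in pRb-deficient cultures and 380, 432 and 422 in pRb-expressing cultures (−1.99, limma adjusted p = 0.000136). Emp1 (−0.70) and Ccnd1, the gene of cyclin D1 (−0.57, limma adjusted p = 0.00249), were lower too, as was the immediate early gene Fos (−0.92, limma adjusted p = 0.00743), whereas Egr1, another immediate early gene, was higher (0.83, limma adjusted p = 0.00283). Emp1 passed in 1 of its 2 probe sets, Ccnd1 in 2 of 3 and Epha4 in 4 of 5. Fos and Egr1 were chosen after their values were seen. Output genes of the pathway therefore did not all lie in the direction of Spry1, Dusp6 and Etv5.

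**Figure D3:**
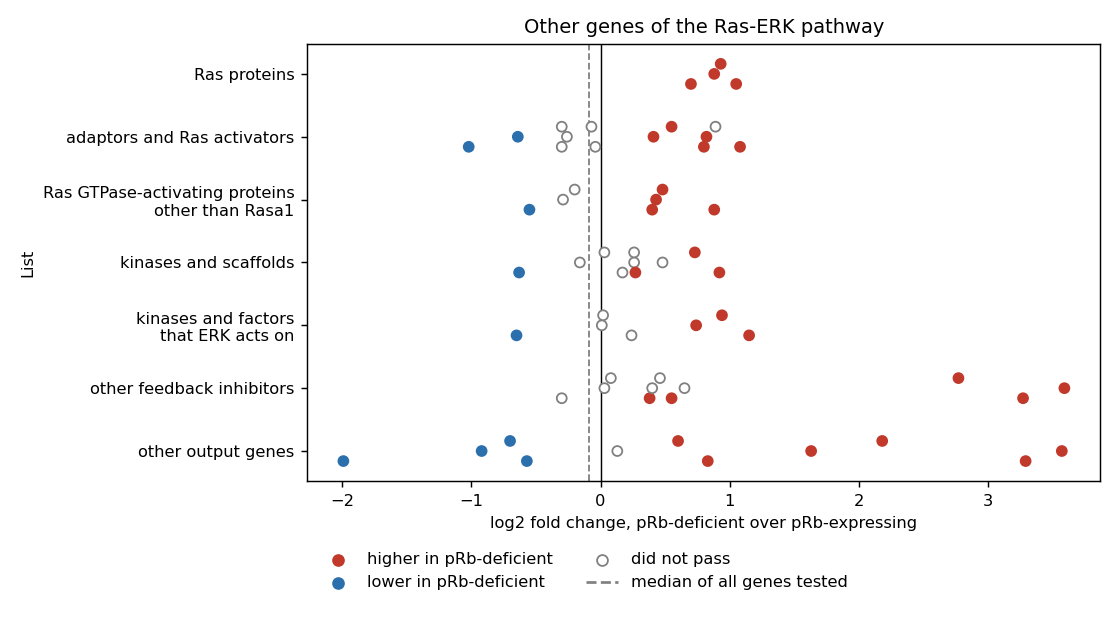
Log2 fold change (pRb-deficient minus pRb-expressing) of the 63 tested genes of the 7 pathway lists, 1 point per gene spread vertically within its list, with red points higher, blue points lower and open points that did not pass, and a dashed line at the median of all genes tested (−0.09). All 4 Ras proteins are higher, whereas adaptors and output genes lie on both sides of 0.

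Whole chromosomes differed in these cultures, so each gene was set beside its chromosome and its 10 nearest tested genes in gene order. Chromosome medians were 0.11 for Spry1 (chromosome 3), 0.28 for Spry2 (chromosome 14) and for Spry4 (chromosome 18), 0.06 for Dusp4 (chromosome 8), 0.13 for Dusp6 (chromosome 10) and 0.33 for Rasa1 (chromosome 13). They were negative for Spred1 (−0.33, chromosome 2), for Spred2 and Etv4 (−0.52, chromosome 11) and for Etv5 (−0.43, chromosome 16). Etv4 and Etv5 were therefore higher on chromosomes whose genes were mostly lower, and with chromosome medians removed their log2 fold changes were 4.26 and 2.5. The values of Spry2 and Rasa1 were smaller after that step, 0.47 (limma adjusted p = 0.027) and 0.80 (limma adjusted p = 0.0016).

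The neighbours did not share the size of the difference as a group. Around Etv4, 1 of 10 neighbours was higher and 4 were lower, with a median of −0.41, and around Rasa1, 2 were higher and 4 were lower, with a median of −0.05. The neighbours of Spry1 had a median of 0.21, with 3 higher and 2 lower, and those of Dusp6 a median of 0.34, with 3 higher and none lower. Single neighbours differed as much as the genes themselves, such as Hspa4l near Spry1 (4.12) and Kitl near Dusp6 (3.19), which were chosen after their values were seen. Around Spred2 none of 10 was higher and 4 were lower, with a median of −0.23.

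**Figure D4:**
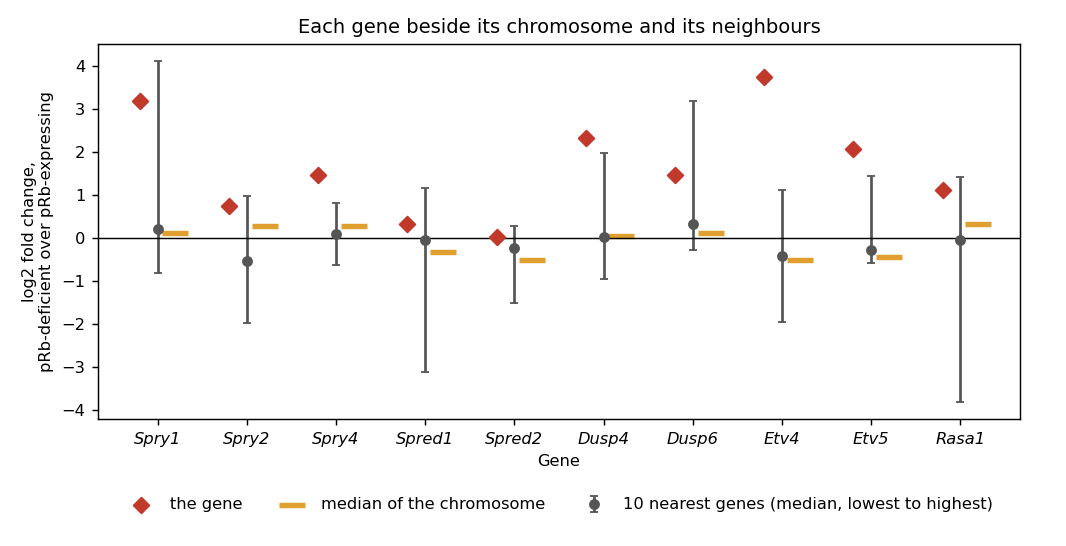
Log2 fold change (pRb-deficient minus pRb-expressing) of each of the 10 genes (diamond) beside its 10 nearest tested genes in gene order (circle at their median, bar from the lowest to the highest) and the median of its chromosome (dash). The fitted values of Etv4 (3.74), Etv5 (2.07), Dusp4 (2.34) and Spry4 (1.46) lie above all of their neighbours. Spry1, Spry2, Spred1, Spred2, Dusp6 and Rasa1 each have a neighbour that is higher.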

How the data were processed

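RNA of 3 pRb-deficient and 3 pRb-expressing cultures was biotin-labeled and hybridized by the authors to 1 array each. The deposited values are signal intensities on a linear scale, which the authors scaled to a trimmed mean of 500 (Affymetrix Microarray 5.0 software in their methods, Affymetrix Expression Console 1.1 and MAS5 in the submitters' processing notes). On the values, the trimmed means were 499.85 to 499.86 and the medians 108.0 to 119.9. The number of arrays limits the precision.

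The table held 45101 probe sets, among them 64 controls, which were dropped, and 38427 of the rest exceeded 32 on at least 1 array. After flooring at 32 and log2 transformation, the 2 groups were compared by lmFit and eBayes (intensity trend) of limma 3.58.1 in R 4.3.3, leaving 4 residual degrees of freedom. Two-sided p-values were adjusted by Benjamini-Hochberg over all probe sets tested (threshold 0.05). The brightest probe set stands for a gene. In the array annotation 34945 probe sets had 1 symbol, 932 had several and 9160 had none, and 34741 were matched to a RefSeq gene (GRCm38.p6), used for chromosomes and gene order.

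The 10 genes, the pathway and marker lists and the alternatives were chosen with earlier results of these data known. The text names all 10 genes, Rb1, and per pathway list up to 3 genes in each direction with the lowest adjusted p. Alternatives were other floors, filters and normalizations, no trend, array weights, a replicate block, omission of each culture, a 2-fold minimum, an exact rank-sum test in place of the permutation-based Wilcoxon test of the authors' methods, which was not run here, the mean of all probe sets of a gene, and removal of chromosome medians.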

Additional observations from a re-analysis of the deposited data

How the results depend on the processing

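With a minimum change of 2-fold, 1799 probe sets passed the test in place of 13433, 5 probe sets of the 10 genes in place of 21, 4 of the 10 genes (Spry1, Dusp4, Etv4 and Etv5) in place of 9, and 8 genes of the pathway lists in place of 39. An exact two-sided Wilcoxon rank-sum test per probe set with Benjamini-Hochberg adjustment, which differs from the permutation-based Wilcoxon test of the authors' methods, left 0 in each of these counts, also at an unadjusted p under 0.05, since its smallest p with 3 against 3 arrays is 0.1, which 17706 probe sets had. In all other settings the counts were 17 to 23 for the probe sets, 8 to 10 for the genes and 34 to 47 for the pathway lists, and those of all probe sets 10571 to 19329. The 23 came with array quality weights, where 22 were higher and 1, of Spred2, was lower, while another Spred2 probe set was among the higher. That fit, which also gave the 47 and the 19329, weighted pRb-deficient replicate 2 at 6.753, and replicates 1 and 3 at 0.364 and 0.44. With each culture left out in turn, the counts were 10571 to 13513 for all probe sets, 17 to 19, 8 to 9, and 34 to 38. No direction was reversed for any of the 10 genes. Arrays of the same replicate number correlated at 0.023, −0.034 and 0.057 after removal of group means, so no pairing by number was seen in the values. The labels do not say whether cultures of the same number were handled together. With the number as a block, 12367 probe sets passed, with 19 of the 10 genes' probe sets, 8 of the genes (Spred1 was lost, limma adjusted p = 0.0521) and 36 of the pathway genes. Without the intensity trend Spred1 was also lost (limma adjusted p = 0.0597). The cause was not tested. Probe sets near the floor, such as those of Etv4 and Dusp4 in pRb-expressing cultures, give bounds rather than folds: with a floor of 100 their log2 fold changes were 2.10 and 1.26.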
